A study of Mus musculus with 2 samples.

Results

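The TGF-beta and BMP genes described here are 10 of the 31053 genes counted, taken by symbol: the ligands Tgfb1, Bmp4 and Bmp6, the receptors Tgfbr1, Tgfbr2, Acvrl1 and Bmpr2, the co-receptors Tgfbr3 and Eng, and the target gene Id1. They were measured by single-cell RNA sequencing of cells of the aortic arch from Apoe-/- male C57BL/6 mice aged 16 weeks, which lack apolipoprotein E in both groups. The ND library came from mice on a normal diet and the HFD library from mice on a high-fat, high-cholesterol diet. Each library was made from 2 pooled aortas, so there is 1 sample per diet, no difference between diets was tested, and the effect of diet cannot be told apart from a difference between the 2 libraries. A level is given as CPM, the UMIs (counted RNA molecules) of a gene scaled to the same total of UMIs in each group of cells, and intervals are exact 95% intervals that cover counting error only. A log2 ratio is of the HFD to the ND level of a gene, and a gene is called past the fold when its ratio is at least 1.5 in either direction and it has at least 30 UMIs in both libraries together.

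TGF-beta and BMP ligands are secreted dimers that bring together a type II and a type I receptor, both of them kinases. TGF-beta acts through Tgfbr2 and Tgfbr1 on Smad2 and Smad3, and BMPs act through receptors such as Bmpr2 and Acvrl1 (ALK1) on Smad1, Smad5 and Smad9, which turn on the Id genes. In blood vessels the ALK1 branch with the co-receptor endoglin (Eng) is needed for orderly arteries and veins, and loss of Eng, Acvrl1 or Bmpr2 function underlies inherited vascular disease in people.

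After the filter, 5416 ND cells and 2739 HFD cells were left, with a median of 3732.5 and 5336 UMIs per cell, and 45.6% of ND and 79.9% of HFD barcodes had been left out for over 30% mitochondrial UMIs. Cells were assigned to a type by the UMIs of marker genes, none of them one of the 10 genes, which placed 4810 ND and 2305 HFD cells. In both libraries, all 8 endothelial, 8 fibroblast, 10 mural and 8 macrophage markers were over 2 times higher in their own cells than in the other kept cells. The same markers set the types, so this describes the assignment and is no separate check of it. The types compared between diets were endothelial cells (2387 ND and 1212 HFD), fibroblasts (993 and 409), mural cells, that is smooth muscle cells and pericytes (56 and 25), and macrophages (372 and 536). The libraries shared 1 barcode among the kept cells. Airway cells were 67 in ND and 0 in HFD. Their markers, summed, were 65.3 CPM in ND and 0.261 CPM in HFD endothelial cells, and 57.2 and 0 CPM in fibroblasts. Whether the 2 libraries hold the same mix of tissue was not tested. Haemoglobin RNA took 0.498% of the UMIs of ND and 3.69% of those of HFD endothelial cells, and the median mitochondrial share was 17.3% and 22.3%. Values without the cells richest in either are given for some results of whole types, and not for groups within a type.

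By level, 6 of the 10 genes stood out in endothelial cells. Bmp4, Bmp6, Acvrl1, Bmpr2, Eng and Id1 were at least 2 times higher in endothelial cells than in all other assigned cells, in the ND library and again in the HFD library. Among all genes with enough UMIs, 13.9% were that much higher and 23.1% that much lower in ND, and 16.2% and 21.5% in HFD. None of the 10 genes was at least 2 times lower in ND endothelial cells. In HFD, Tgfbr2 (119 CPM in endothelial and 251 CPM in other cells) and Tgfbr3 (53.3 and 114 CPM) were, but neither was without the cells over 5% haemoglobin. The ratio was 21.5 in ND and 16.4 in HFD for Bmp6, 11.0 and 14.2 for Eng, 9.75 and 17.3 for Id1, and 5.83 and 5.50 for Bmp4.

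**Figure D1:**
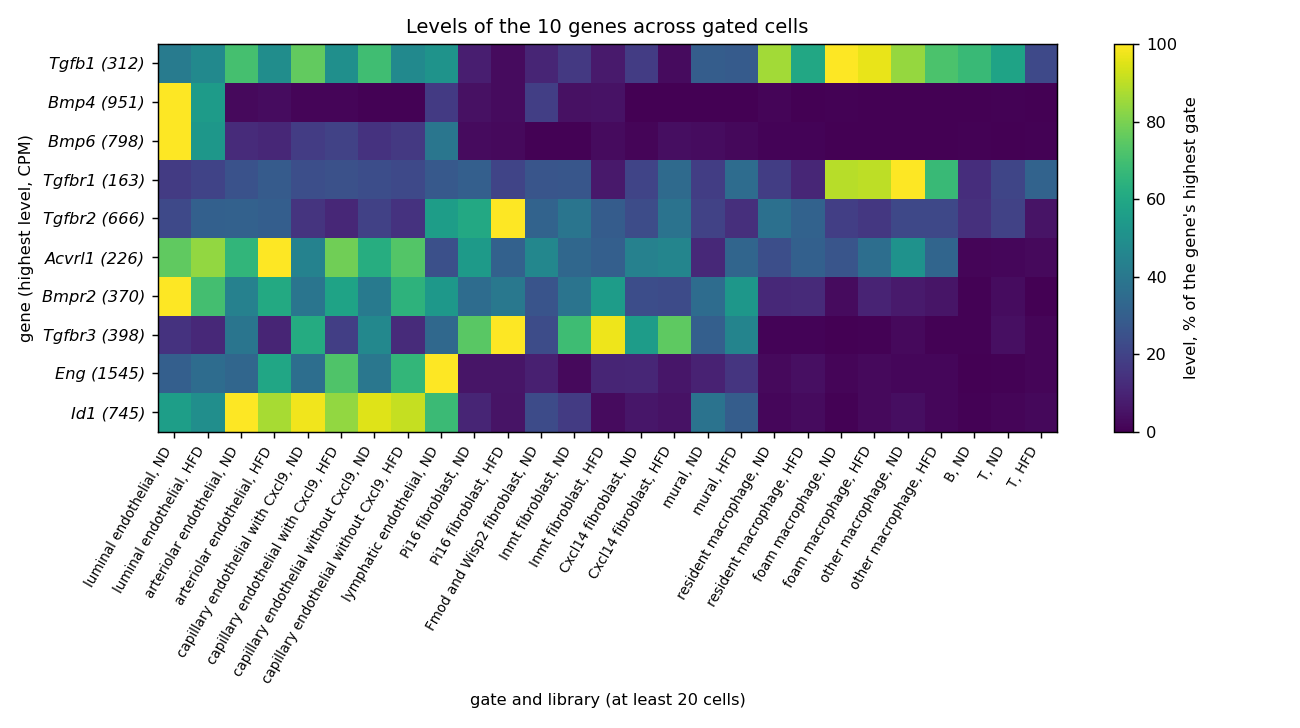
Level of each gene in endothelial, fibroblast, mural, macrophage, B and T cell groups of at least 20 cells, as a percentage of the highest level of the same gene among the groups shown, with that level in CPM in parentheses; columns are groups of cells in the ND or HFD library. Bmp4 and Bmp6 peak in luminal endothelial cells, Tgfbr2 and Tgfbr3 in Pi16 fibroblasts, and Tgfbr1 in macrophages that are not of the resident kind.

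Of the ligands, Bmp4 had the narrowest range of cells. Bmp4, on the minus strand at chr14:46383520-46390669 (GRCm38), encodes a BMP made by endothelium under disturbed flow. Luminal endothelial cells, marked by Vwf, Vcam1 and Cytl1, held 951 CPM (909 to 994) in ND and 520 CPM (477 to 567) in HFD. They were 10.6% of ND and 8.75% of HFD endothelial cells, but held 90.1% and 86.3% of the endothelial Bmp4 UMIs. Next in ND came fibroblasts with Fmod and Wisp2 UMIs at 175 CPM (139 to 218) and lymphatic endothelial cells at 160 CPM (127 to 199), whose intervals overlap. Capillary endothelial cells, marked by Gpihbp1, Cd36, Rgcc and Aqp1, were split by whether they had a Cxcl9 UMI, and held 75 UMIs (10.2 to 16.3 CPM) in ND and 12.8 CPM in HFD with Cxcl9, and 6.86 and 5.80 CPM without. Mural cells had 0 UMIs in both libraries, which with 3 UMIs as the limit allows up to 9.83 CPM in ND and 24.5 CPM in HFD. In B cells, which should lack the gene, 1 of 481 ND cells had a UMI (0.208%).

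The upstream sequences of Bmp4 and Eng are shown because Bmp4 was counted mainly in luminal cells and Eng in all endothelial groups, and that of Tgfbr2 because it peaked in fibroblasts. They are the 250 bases before the RefSeq start in GRCm38.p6, written 5′ to 3′ on the strand of the gene. Capitals mark, on either strand, the letters GTCT of the Smad half-site and the letters CACCC of the KLF motif.
Bmp4, chr14:46390670-46390919, minus strand: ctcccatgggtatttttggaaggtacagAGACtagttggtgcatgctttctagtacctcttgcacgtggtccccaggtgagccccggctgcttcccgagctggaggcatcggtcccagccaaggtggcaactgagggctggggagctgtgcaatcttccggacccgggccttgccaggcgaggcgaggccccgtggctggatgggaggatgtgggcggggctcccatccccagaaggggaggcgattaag
Eng, chr2:32646345-32646594, plus strand: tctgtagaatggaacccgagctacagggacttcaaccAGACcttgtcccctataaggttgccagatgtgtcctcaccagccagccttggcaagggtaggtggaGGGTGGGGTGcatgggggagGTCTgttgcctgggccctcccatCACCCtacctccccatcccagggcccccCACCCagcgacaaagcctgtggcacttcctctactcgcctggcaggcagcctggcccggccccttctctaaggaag
Tgfbr2, chr9:116175364-116175613, minus strand: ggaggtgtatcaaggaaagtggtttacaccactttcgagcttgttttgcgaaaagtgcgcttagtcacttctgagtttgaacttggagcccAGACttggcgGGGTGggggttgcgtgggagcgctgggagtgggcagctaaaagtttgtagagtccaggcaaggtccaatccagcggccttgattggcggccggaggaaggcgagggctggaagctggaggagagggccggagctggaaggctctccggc
GTCT was found 1 time before Bmp4, 2 times before Eng and 1 time before Tgfbr2, and 82.9% of all 32851 upstream sequences of this length hold it. CACCC was found 0, 4 and 1 times, and 52.0% of all hold it. These letters were searched without regard to overlap with other motifs, and a match describes the sequence and not binding. Of the 10 genes, 7 had an upstream sequence in the table used.

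Bmp6 was also highest in luminal cells but was counted in every endothelial group. Bmp6, at chr13:38345107-38500302 on the plus strand, encodes a BMP that is known for its part in iron balance and is made largely by endothelium. Its level in luminal cells was 798 CPM (760 to 838) in ND and 423 CPM (384 to 465) in HFD. In ND it was then 314 CPM in lymphatic, 142 CPM in capillary cells with Cxcl9, 118 CPM in those without and 99.3 CPM in arteriolar cells (marked by Stc1, Sema3g, Gja4 and Gja5), and the intervals of these last 2 overlap. Among assigned groups of at least 20 cells outside the endothelium, the highest level was 30.4 CPM in ND contractile smooth muscle and 28.1 CPM in HFD Cxcl14 fibroblasts. Luminal cells held 53.3% of the endothelial Bmp6 UMIs in ND and 32.3% in HFD. UMIs of both Bmp4 and Bmp6 were counted in 198 of 253 ND luminal cells (78.3%) and 70 of 106 HFD luminal cells (66.0%), against 34 of 1062 and 12 of 227 capillary cells with Cxcl9. Neither gene had a UMI in 554 of the 1062 ND capillary cells with Cxcl9 and in 610 of the 861 without.

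Tgfb1, at chr7:25687002-25705077 on the plus strand, encodes the TGF-beta most used by immune cells and was the one ligand spread over blood-derived cells. In ND it was highest in monocytes at 316 CPM, foam macrophages (with Gpnmb, Trem2 or Spp1 UMIs) at 312 CPM and resident macrophages (Lyve1, Folr2, Cbr2 or F13a1) at 268 CPM, whose intervals overlap. B cells held 211 CPM and all endothelial cells 210 CPM. In HFD, foam macrophages were at 301 CPM (276 to 327), above resident macrophages at 187 CPM (166 to 209.8). Fibroblasts were low, at 32.3 CPM in ND and 21.1 CPM in HFD.

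The 2 TGF-beta receptors peaked in different cells. Tgfbr1, the type I receptor at chr4:47353222-47414931 on the plus strand, was 145 CPM in ND and 146 CPM in HFD foam macrophages, and 29.5 and 17.2 CPM in resident ones. Macrophages of neither kind were at 163 and 110.5 CPM, and their intervals overlap those of foam macrophages. The highest endothelial level was 46.4 CPM, in HFD arteriolar cells. Tgfbr2, the type II receptor at chr9:116084293-116175360 on the minus strand, was highest in Pi16 fibroblasts, a class described in the adventitia, at 402 CPM (376 to 429) in ND and 666 CPM (623 to 711) in HFD. Lymphatic endothelial cells in ND were at 371 CPM, with an interval that overlaps the former, and resident macrophages at 245 CPM in ND and 209 CPM in HFD.

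The BMP receptors were highest in endothelial cells and were also counted in fibroblasts and macrophages. Acvrl1, at chr15:101128522-101145336 on the plus strand, was highest in luminal cells in ND (171 CPM) and in arteriolar cells in HFD (226 CPM), and in each library the intervals of both overlap. Bmpr2, the type II receptor at chr1:59763400-59879014 on the plus strand, stood apart in ND luminal cells at 370 CPM (344 to 398), above the next group, lymphatic cells, at 198 CPM. In HFD the luminal level was 259 CPM (229 to 293) and overlapped that of capillary cells without Cxcl9 at 240 CPM (225 to 255). Acvrl1 was 112 CPM in ND and 69.6 CPM in HFD fibroblasts, 67.2 and 75.9 CPM in macrophages, and 115 CPM in ND macrophages of neither the resident nor the foam kind. B cells held 3.14 CPM of Acvrl1 and 2.61 CPM of Bmpr2 in ND.

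The co-receptors Tgfbr3 and Eng peaked in different cells. Tgfbr3 (betaglycan), at chr5:107106570-107289629 on the minus strand, was highest in Pi16 fibroblasts at 296 CPM in ND and 398 CPM in HFD, and in ND it was also 244 CPM (232 to 257) in capillary cells with Cxcl9. Macrophages were at 5.29 CPM in ND and 2.61 CPM in HFD. Eng, at chr2:32646595-32682669 on the plus strand, was highest in the 39 ND lymphatic endothelial cells at 1545 CPM (1438 to 1657), and among the other endothelial groups it ran from 467 CPM in luminal to 611 CPM in capillary cells without Cxcl9. Outside the endothelium the highest ND level was 165 CPM, in Cxcl14 fibroblasts. Id1, a target of BMP signalling at chr2:152736251-152737410 on the plus strand, was 709 to 745 CPM in ND arteriolar and capillary cells, with intervals that overlap, and lower in luminal cells at 419 CPM (391 to 448).

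Genes with the most similar level across 32 groups of cells were found by Pearson's r of log2(CPM + 10) over 10203 genes, as a description. The groups share libraries and parent types, so they are not independent. For Tgfbr3 these were the basement membrane genes Lamc1 (r = 0.94) and Lama4 (0.93) and the collagen chaperone Serpinh1 (0.92). For Id1 they were Tspan7, Cav1 and Cavin2 (0.96 each), for Eng Ptprm (0.95), Cavin2 (0.94) and Ephb4 (0.93), and for Bmp6 Cdh13, Nos3 and Mmrn2 (0.94 each). Bmp4 was most similar to Cgnl1 (0.91), Bmpr2 to Tns2 (0.90), Tgfb1 to Crlf2 (0.86), Acvrl1 to Arsa (0.83), Tgfbr1 to the macrophage protease Mmp12 (0.81) and Tgfbr2 to Igfbp4 (0.80).

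Between the diets, endothelial Tgfbr3 was 3.50 times lower and Eng 1.62 times higher in the HFD library. Of the 10 genes, Eng was higher past the fold, Bmp4 and Tgfbr3 were lower, and 7 were within it, where 5.15% of 11836 genes were higher and 18.1% lower. The median log2 ratio of the 10 genes was -0.14, and that of all genes tested -0.17. Tgfbr3 went from 187 CPM in ND to 53.3 CPM in HFD (log2 ratio -1.81, -1.96 to -1.66), and 1.48% of genes were at least as far down. After each cell was thinned to 1000 UMIs, 18.4% of ND and 3.96% of HFD endothelial cells had a Tgfbr3 UMI, and 0.416% of ND B cells. Before thinning the endothelial shares were 49.4% and 23.4%, at a median of 3648 and 5375.5 UMIs per cell. Without the cells over 5% haemoglobin the log2 ratio was -1.67, and at a limit of 20% mitochondrial UMIs it was -1.54.

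Eng went from 595 CPM in ND to 965 CPM in HFD (log2 ratio 0.70, 0.65 to 0.74), and 3.64% of genes were at least as far up. It was 0.74 without cells over 5% haemoglobin and 0.62 at the 20% mitochondrial limit. Eng is among the genes that the study's text names, from these same libraries. Bmp4 went from 175 to 79.3 CPM (log2 ratio -1.14, -1.28 to -1.01), with -0.96 without the cells over 5% haemoglobin and -0.69 at the 20% limit. Within the fold, Acvrl1 was 123 CPM in ND and 176 CPM in HFD (0.51, 0.41 to 0.62) and Bmpr2 187 and 237 CPM (0.34, 0.25 to 0.43). Bmp6 (249 and 172 CPM) and Tgfb1 (210 and 150 CPM) had log2 ratios of -0.53 and -0.49. Tgfbr1 was 37.6 and 37.0 CPM, Tgfbr2 135 and 119 CPM, and Id1 664 and 620 CPM, with log2 ratios of -0.03, -0.18 and -0.10. Those of Tgfbr1 and Id1 turned in sign under other scalings, to 0.09 and 0.02 without mitochondrial, haemoglobin and ribosomal genes.

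**Figure D2:**
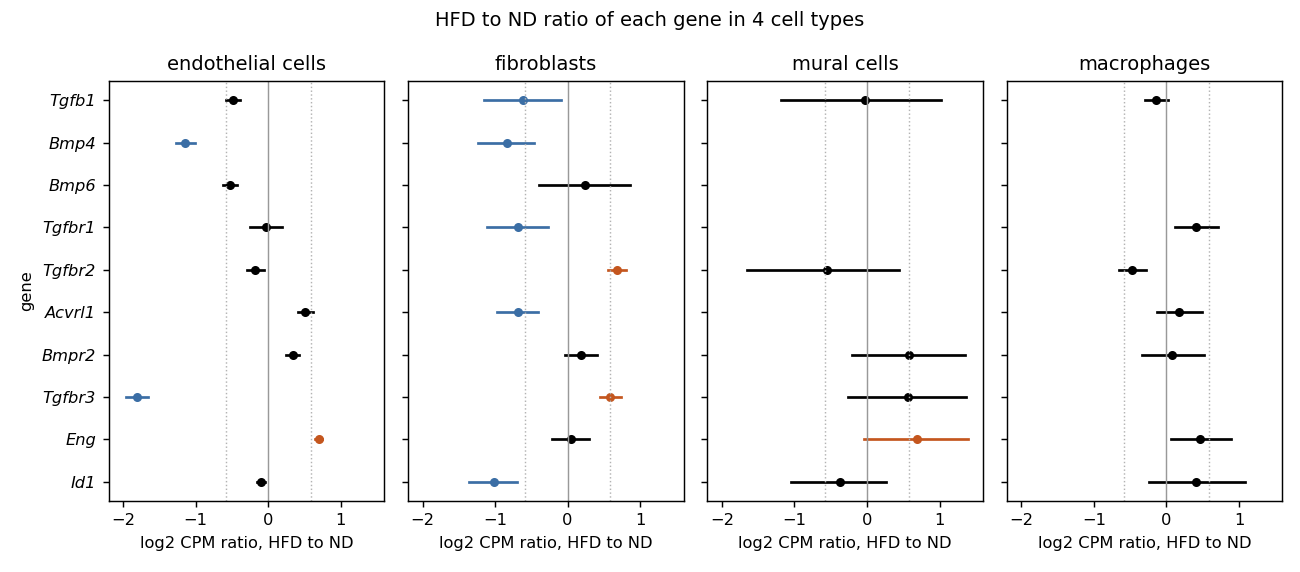
Log2 ratio of the HFD to the ND level of each gene in 4 cell types, with 95% counting intervals; dotted lines mark a ratio of 1.5 in either direction, orange points are higher and blue points lower past it, and genes with under 30 UMIs have no point. Tgfbr3 lies at -1.81 in endothelial cells and 0.59 in fibroblasts.

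The endothelial values differ by group. Over all genes tested, 9.10% were higher and 12.8% lower past the fold in luminal cells, 7.32% and 17.2% in capillary cells with Cxcl9, and 7.46% and 17.5% in those without. In luminal cells Bmp4 (log2 ratio -0.87, -1.01 to -0.73) and Bmp6 (-0.92, -1.07 to -0.76) were lower past the fold, while in both capillary groups the intervals of Bmp6 spanned 0, with log2 ratios of 0.13 and 0.18. With a stricter luminal gate, of 228 ND and 95 HFD cells and chosen after the data were seen, Bmp4 was 980 and 535 CPM and Bmp6 822 and 425 CPM. The luminal markers of the gate were not level either, with Vwf at 1600 CPM in ND and 1676 CPM in HFD, Vcam1 at 1111 and 716 CPM and Cytl1 at 5542 and 3672 CPM, and the part of this in the Bmp4 and Bmp6 values was not tested. Bmpr2 was lower in luminal cells (-0.51, -0.72 to -0.31) and higher in capillary cells with Cxcl9 (0.58, 0.40 to 0.76) and without (0.67, 0.50 to 0.83). Tgfbr2 was 147 CPM in ND and 204 CPM in HFD luminal cells (0.47, 0.21 to 0.73), but 130 and 96.5 CPM in capillary cells without Cxcl9 (-0.43, -0.64 to -0.22).

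Tgfbr3 was lower past the fold in arteriolar cells (154 and 41.1 CPM) and in capillary cells with Cxcl9 (244 and 74.6 CPM) and without (186 and 49.3 CPM). In luminal cells, where it was already low in ND, it was 58.4 and 45.7 CPM, and the interval of the ratio spanned 0 (-0.88 to 0.15). Eng was higher past the fold in the arteriolar group (510 and 914 CPM) and in both capillary groups (558 and 1121 CPM, and 611 and 1024 CPM), and in luminal cells it was 467 and 548 CPM. Id1 was within the fold in all 4 groups. Capillary cells with a Cxcl9 UMI were 1062 in ND and 227 in HFD, so the pooled endothelial values mix these groups in other shares. With the 4 groups weighted equally, an alternative chosen after the data were seen, the log2 ratio was -1.61 for Tgfbr3, 0.75 for Eng, -0.80 for Bmp4 and 0.18 for Bmpr2.

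**Figure D3:**
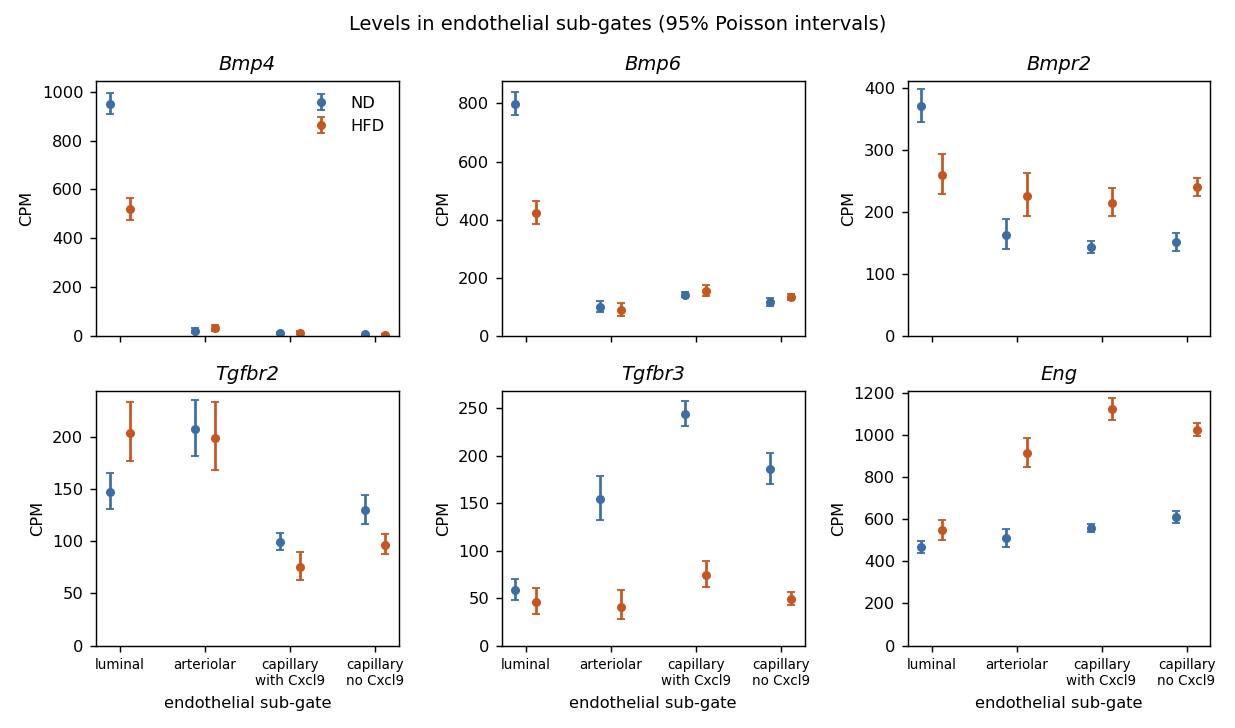
Levels in CPM of 6 of the genes in 4 endothelial groups in the ND (blue) and HFD (orange) libraries, with 95% Poisson intervals for counting error. Among these groups Bmp4 and Bmp6 are lower past 1.5-fold in luminal cells alone, Bmpr2 is lower there and higher in the other 3 groups, and the Tgfbr3 gap is widest outside luminal cells.

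Among 56 other genes of the pathway, 43 had enough endothelial UMIs, 5 were higher and 13 lower past the fold, where 5.15% of all genes tested were higher and 18.1% lower, and their median log2 ratio was -0.24. By group, 1 ligand was higher and 3 lower of 7, 0 of 5 receptors passed the fold, 1 latent TGF-beta binding or activating gene was higher and 2 lower of 6, 2 of 11 Smads and regulators were lower, 1 inhibitor was higher and 2 lower of 5, and 2 targets were higher and 4 lower of 9. Among the highest ratios were those of Ltbp2, a matrix protein related to the TGF-beta binding proteins (6.03 and 21.6 CPM), the activin subunit Inhbb (28.4 and 49.9 CPM) and the matrix protein Tgfbi (15.9 and 27.2 CPM). The 4 lowest were those of Tmem100, a target of ALK1 (8.72 and 1.96 CPM), Bmp2 (2.44 and 0.784 CPM), Ltbp1, which binds latent TGF-beta (24.0 and 8.75 CPM), and the BMP target Atoh8 (45.8 and 17.0 CPM). Tmem100 rests on 107 ND and 15 HFD UMIs and Bmp2 on 30 and 6. In other assigned ND cells Tmem100 (89.5 CPM), Bmp2 (21.7 CPM) and Ltbp1 (105 CPM) were above their endothelial levels. The part of RNA from those cells in these values was not tested. In luminal cells Ltbp1 was 34.8 and 39.7 CPM (0.19, -0.41 to 0.77) and Atoh8 9.81 and 11.9 CPM (0.28, -0.88 to 1.38). Atoh8 was 64.2 and 20.8 CPM in capillary cells with Cxcl9 and 41.5 and 18.6 CPM without.

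The inhibitory Smads, which BMP and TGF-beta signalling switch on and which dampen it, were chosen for description, like Smad1, after their values were seen. Smad6 was 252 CPM in ND and 120 CPM in HFD luminal cells (log2 ratio -1.07, -1.36 to -0.78), and 63.5 and 128 CPM in capillary cells with Cxcl9 (1.01, 0.76 to 1.26). In capillary cells without Cxcl9 it was 74.3 and 142 CPM. Smad7 was 338 and 188 CPM in luminal cells and 99.2 and 146 CPM in capillary cells without Cxcl9. Smad1, which carries the BMP signal, was 271 and 158 CPM in capillary cells with Cxcl9 and 51.5 and 63.6 CPM in luminal cells.

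In fibroblasts, Tgfbr2 and Tgfbr3 were higher past the fold in HFD, Tgfb1, Bmp4, Tgfbr1, Acvrl1 and Id1 were lower, and 3 were within it, where 5.53% of 10185 genes were higher and 16.1% lower. The median log2 ratio was -0.28 for the 10 genes and -0.16 for all genes tested. Tgfbr2 was 324 CPM in ND and 520 CPM in HFD (0.68, 0.56 to 0.80) and Tgfbr3 242 and 364 CPM (0.59, 0.45 to 0.73). Id1 was 100 and 49.5 CPM (-1.02, -1.35 to -0.69), Bmp4 68.4 and 38.2 CPM, Acvrl1 112 and 69.6 CPM and Tgfbr1 52.0 and 32.5 CPM. Tgfb1 was 32.3 and 21.1 CPM (-0.61, -1.16 to -0.10), but 0.09 on the log2 scale at the 20% mitochondrial limit, which turns its direction. Eng was 96.3 and 99.6 CPM, with an interval that spans 0. The count of 5 lower genes became 2 at that limit, and also 2 with median-of-ratios scaling. Shares over all genes were not taken for these counts. The endothelial markers, summed, were 160 CPM in ND and 222 CPM in HFD fibroblasts.

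Fibroblasts too held their kinds in other shares, with 122 ND and 12 HFD cells of the Fmod and Wisp2 kind. In Pi16 fibroblasts alone (512 ND and 271 HFD cells), the log2 ratio was 0.73 for Tgfbr2, 0.43 for Tgfbr3, -1.02 for Id1, -0.81 for Acvrl1, -0.50 for Bmp4 and -1.40 for Tgfb1. Of the 56 other pathway genes, 48 had enough UMIs in fibroblasts, 3 were higher and 18 lower past the fold, where 5.53% of all genes tested were higher and 16.1% lower, with a median of -0.31. The targets were 6 lower and 0 higher of 9. The lowest ratios of the list were those of the target Tgfbi at 401 and 114 CPM, the ligand Tgfb3 at 107 and 31.0 CPM, the matricellular gene Ctgf at 1200 and 396 CPM and the BMP target Id4 at 56.0 and 20.1 CPM. In Pi16 fibroblasts alone, where 5.14% of all genes tested were higher and 16.5% lower, Tgfbi was 206 and 72.9 CPM, Tgfb3 70.1 and 25.3 CPM, Ctgf 884 and 292 CPM and Id4 41.0 and 17.1 CPM. The 3 higher were Bmper, a BMP-binding protein (32.3 and 68.6 CPM), the type I receptor Acvr1b (12.2 and 22.2 CPM) and the activin subunit Inhba (14.9 and 23.7 CPM). In Pi16 fibroblasts Bmper (17.2 and 30.5 CPM) and Acvr1b (9.26 and 19.3 CPM) were also higher past the fold. Inhba was within it there, at 8.38 and 10.4 CPM (0.31, -0.79 to 1.39), on 19 and 14 UMIs.

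**Figure D4:**
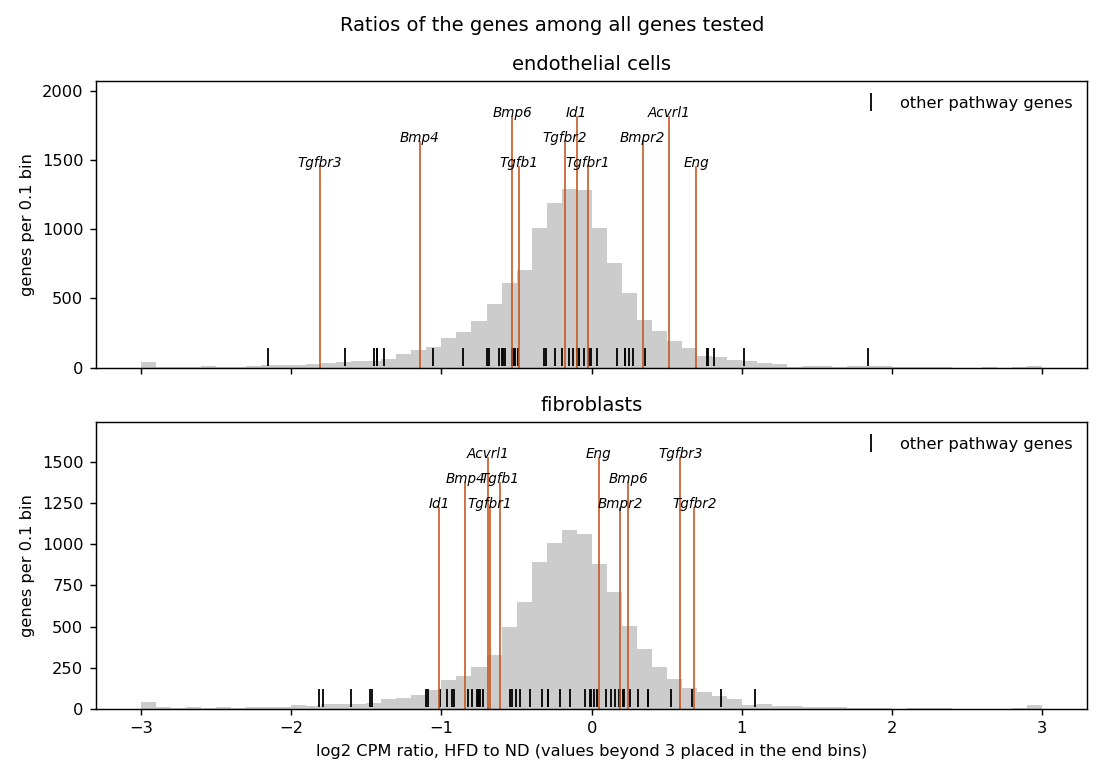
Number of genes by log2 ratio of HFD to ND in bins of 0.1, for endothelial cells (upper) and fibroblasts (lower); orange lines are the 10 genes and black marks the other pathway genes with enough UMIs. In endothelial cells Tgfbr3 at -1.81 lies far below the median of all genes at -0.17, and in fibroblasts Id1 at -1.02 and Tgfbr2 at 0.68 lie at either side of the bulk.

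In macrophages none of the 7 genes with enough UMIs passed the fold, where 10.3% of 8915 genes were higher and 17% lower. Their median log2 ratio was 0.18, and that of all genes tested -0.10. Tgfbr1 was 67.7 CPM in ND and 90.0 CPM in HFD (0.41, 0.11 to 0.72), Tgfbr2 213 and 153 CPM (-0.48, -0.66 to -0.29) and Tgfb1 271 and 247 CPM. The log2 ratio of Tgfbr1 was 0.93 at the 20% mitochondrial limit, past the fold, and 0.11 as a mean over cells. The share of kinds differed, with 24 ND and 193 HFD foam macrophages beside 268 and 277 resident ones. Within resident cells Tgfbr1 was lower past the fold (-0.77, -1.54 to -0.03), on 39 and 27 UMIs, and within foam cells it was 0.01, so the pooled value has the opposite direction to that of resident cells. Eng in resident cells was higher past the fold, at 39.3 and 65.1 CPM (0.73, 0.23 to 1.24). Id1 was 12.8 and 22.3 CPM there, with an interval that spans 0 (-0.08 to 1.73). The endothelial markers, summed, were 132 CPM in ND and 271 CPM in HFD resident macrophages. The part of endothelial RNA in these Eng and Id1 values was not tested. Tgfb1 in resident cells was 268 and 187 CPM (-0.52, -0.75 to -0.29). Over all genes tested in resident cells, 6.00% were higher and 13.7% lower. Of 27 other pathway genes with enough UMIs, 4 were higher and 9 lower, where 10.3% of all genes tested were higher and 17% lower, with a median of -0.41. Gdf15, a stress-induced ligand of the family, was 147 and 420 CPM, Thbs1, an activator of latent TGF-beta, 67.2 and 160 CPM, Itgav 37.5 and 57.9 CPM and Smad6 2.12 and 6.79 CPM. Smad6 rests on 4 ND and 26 HFD UMIs and was 108 and 138 CPM in endothelial cells, whose markers, summed, were 120 and 228 CPM in macrophages, and their part in its value was not tested. In foam macrophages Gdf15 was 134 and 692 CPM (log2 ratio 2.37, on 25 and 1305 UMIs), and in resident ones 136 and 130 CPM. Itgav was lower past the fold in resident cells (-0.69, -1.49 to 0.10), on 34 and 25 UMIs with an interval that spans 0. In foam cells Itgav was within the fold (0.34, -0.45 to 1.24), so its pooled value has the opposite direction to that of resident cells. Thbs1 was higher past the fold in both kinds, with log2 ratios of 0.86 in resident and 1.18 in foam cells. Bmp2 (36.0 and 7.31 CPM), Tgfb3 (10.0 and 4.96 CPM) and Acvr2a (9.52 and 4.96 CPM) were among the lowest ratios.

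Mural cells were few, and 6 of the 10 genes had enough UMIs. Contractile smooth muscle cells were 45 of the 56 ND and 15 of the 25 HFD cells, pericytes were 11 and 9, and the macrophage markers, summed, were 16.4 and 270 CPM. Eng was higher past the fold at 147 and 237 CPM (0.68, -0.04 to 1.39), on 45 and 29 UMIs with an interval that spans 0, and 0 genes were lower, where 9.82% of 2221 genes were higher and 25.1% lower. The median was 0.27 for the 6 genes and -0.21 for all genes tested. The endothelial markers, summed, were 872 CPM in ND and 1225 CPM in HFD mural cells, and the part of these markers and kinds in the mural values was not tested. The log2 ratio of Eng was 0.13 at the 20% mitochondrial limit, 0.39 with own markers 2 times the others and 0.53 without cells over 5% haemoglobin, each within the fold. Of 19 other pathway genes with enough UMIs, 11 were lower and 0 higher, where 25.1% of all genes tested were lower and 9.82% higher, with a median of -0.64. The 4 lowest were the activin inhibitor Fst (138 and 16.3 CPM), Thbs1 (754 and 261 CPM), Ltbp1 (206 and 73.5 CPM) and Bmp2 (85.2 and 32.7 CPM). The 25 HFD mural cells held 122413 UMIs in all, so the HFD levels of Fst, Ltbp1 and Bmp2 rest on few UMIs. That of Fst lies below the limit of 3 UMIs given above for this group.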

How the data were processed

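Single-cell RNA was measured in 1 ND and 1 HFD library of the 10x Genomics kind. The authors deposited UMI counts per gene and barcode, not normalized, from Cell Ranger 3.0.1 (per the file headers), on mm10 per the submitters' processing notes. Counts of the single libraries were used, and the joined table of both was not used here. Depth was 27137322 ND and 17191279 HFD UMIs in kept cells.

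Barcodes with at least 200 genes, 200 UMIs and at most 30% mitochondrial UMIs were kept, the limits of the study's methods. A cell was assigned to a type where at least 2 of its markers had a UMI, with a sum of at least 3 UMIs and at least 3 times that of every other type. This gate was the main handling of doublets, since Scrublet in scanpy 1.11.5 marked 0 ND cells and 1 HFD cell. UMIs were summed per type and library. Intervals are exact (95%): Poisson for CPM, Clopper-Pearson for shares and conditional binomial for ratios. Because there is 1 library per diet, no test was made, and cells were not taken as replicates. Shares of cells with a UMI were also taken after thinning each cell to 1000 UMIs. The ratios, their intervals and the calls past the fold were tested on simulated counts, while the filter, gates, thinning and likeness were not. The simulated counts were Poisson draws with set folds and no variation between libraries, animals or cells. They therefore check the calculation for counting error only, and not the comparison of the diets.

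All 10 genes are named, with, per type, the 4 other pathway genes furthest past the fold in each direction and, by likeness, up to 3 genes for each of the 10. A gene that this rule names is not reported here. Smad6, Smad7 and Smad1 in endothelial groups, and values of other pathway genes within groups of cells, were added after their values were seen. The genes and lists were chosen with earlier results of these data known. Gene positions come from GENCODE M21 on GRCm38 and upstream sequences from RefSeq on GRCm38.p6. Alternatives changed the mitochondrial limit, the gate, doublets, haemoglobin-rich cells, scaling, the weight of cells, the fold and the UMI minimum. Python 3.11.15, numpy 2.4.6, scipy 1.17.1, pandas 2.3.3 and matplotlib 3.10.9 were used.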

Additional observations from a re-analysis of the deposited data

Results flagged for a closer look

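Some genes were higher in the HFD library in one type of cell and lower in another, with both counting intervals off 0. With 1 library per diet these differences were not tested. The log2 ratios of Tgfbr3 in fibroblasts (0.59) and endothelial cells (-1.81) were 2.40 apart. Those of Acvrl1 in endothelial cells (0.51) and fibroblasts (-0.69) were 1.20 apart, those of Tgfbr2 in fibroblasts (0.68) and macrophages (-0.48) 1.16 apart, and those of Tgfbr1 in macrophages (0.41) and fibroblasts (-0.68) 1.09 apart. Within the endothelium, Bmpr2 in capillary cells without Cxcl9 (0.67) and luminal cells (-0.51) were 1.18 apart, and Tgfbr2 in luminal cells (0.47) and capillary cells without Cxcl9 (-0.43) were 0.89 apart.

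Barcodes over the 30% mitochondrial limit, which no comparison used, were assigned to types by the same rule, with CPM taken over the UMIs that are not mitochondrial. In 878 ND and 4053 HFD endothelial barcodes of this kind, Eng (log2 ratio 0.98), Bmpr2 (0.67) and Acvrl1 (0.48) were higher in HFD, with intervals above 0. Tgfbr3 was 290 CPM in ND and 60.4 CPM in HFD there (log2 ratio -2.26). Bmp6 had a log2 ratio of 0.22 there (-0.03 to 0.48), against -0.53 in the kept endothelial cells. That of Bmp4 was -0.82 (-1.57 to 0.001) and that of Tgfbr1 0.24 (-0.27 to 0.80), with intervals that span 0. Those of Tgfb1, Tgfbr2 and Id1 were -0.45, -0.19 and -0.20.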

How the results depend on the processing

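No replicate could be left out, since each diet has 1 library, and depth limits mural cells most. No paired analysis was possible because each diet has 1 library and no test was made. The median-of-ratios centre lay at a log2 ratio of -0.16 in endothelial cells, -0.13 in fibroblasts and -0.14 in macrophages, and that scaling raised every ratio by as much.

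In endothelial cells the count of the 10 genes lower past the fold was 2 under every alternative run, and the count higher, 1, became 2 with median-of-ratios scaling or without mitochondrial, haemoglobin and ribosomal genes. At a fold of 2 the counts higher were 0 in endothelial cells, fibroblasts and mural cells, and 1 was lower in fibroblasts. In fibroblasts the 5 lower became 2 at the 20% mitochondrial limit, with median-of-ratios scaling and without the mitochondrial, haemoglobin and ribosomal genes. In Pi16 fibroblasts alone, chosen after seeing the data, 1 was higher and 3 were lower, where 5.14% of all genes tested were higher and 16.5% lower. In mural cells the 1 higher became 2 with own markers 5 times the others or without cells over 5% haemoglobin, 3 without the mitochondrial, haemoglobin and ribosomal genes and 0 at 100 UMIs, and the 0 lower became 3 with own markers 2 times the others and 1 at the 20% limit, without the 6% highest doublet scores or as a mean over cells. In macrophages 1 was higher at the 20% limit or with median-of-ratios scaling, and 1 was lower with own markers 2 times the others. Genes at least 2 times lower in HFD endothelial than in other cells became 1 at the 20% limit and 0 without cells over 5% haemoglobin. The cause was not tested. Except in Pi16 fibroblasts, the share over all genes was not taken under these alternatives, so their counts have none to be set against.

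Of 33 single log2 ratios, 11 changed sign under some alternative, and 1 that had been called did so, Tgfb1 in fibroblasts, at 0.0938 with the 20% limit. The mural Eng call ended at the 20% limit (0.13), with own markers 2 times the others (0.39) and without cells over 5% haemoglobin (0.53), so the mural counts under these do not hold it. Ranges were -1.95 to -1.54 for endothelial Tgfbr3, 0.62 to 0.85 for Eng, -1.15 to -0.69 for Bmp4, and in fibroblasts 0.67 to 0.88 for Tgfbr2 and -1.39 to -0.77 for Id1. The equal weight of endothelial groups and the stricter luminal gate were also chosen after seeing the data.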
